A study of Mus musculus with 6 samples.

Results

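Matricellular proteins are secreted into the extracellular matrix, where they act less as building material than as signals: they bind integrins, growth factors and collagens and change how cells attach, move and divide. In fibroblasts they are made in wounds, scars and tumour stroma. Ccn1 and Ccn2 are textbook target genes of the coactivator YAP and its DNA-binding TEAD partners, and several others are induced by TGF-beta. The 10 genes described here were chosen by symbol: the CCN genes Ccn1, Ccn2, Ccn4 and Ccn5, the thrombospondin genes Thbs1 and Thbs2, the fasciclin-domain genes Tgfbi and Postn, the tenascin gene Tnc, and Sparc. Each matched 1 row of a table of 21929 protein-coding genes.

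The samples were RNA of L929 cells, an established mouse fibroblast line, from co-culture with tumour cells. Biotin-positive cells (3 libraries) are labelled as having interacted with tumour cells that the labels call MFCSTCL, and Biotin-negative cells (3 libraries) as not having interacted with the tumour. The groups share the cell line, the co-culture and 1 batch label, so no library stands for cells that were never in co-culture. The labels do not expand the name of the tumour cells, nor say how biotin was attached, how the cells were separated, or whether replicate libraries stem from different cultures. The p-values below therefore speak only of library-to-library spread, part or all of which could be technical. Levels are in FPKM, fragments scaled by transcript length and library size. Summed over all genes, a library held 337771 to 356681 FPKM, and the number of reads per library is unknown.

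The fibroblast label was checked against 14 markers, of which 10 averaged at least 1 FPKM in Biotin-positive cells and 9 in Biotin-negative cells. The intermediate filament gene Vim and the collagen genes Col1a1, Col1a2 and Col3a1 were among them, whereas Dcn, Lum, Thy1 and Fap stayed under 1 FPKM in both groups. Of 20 epithelial markers, 18 stayed under 1 FPKM in both groups; these 18, which include Epcam, Cdh1 and Krt18, summed to 1.27 to 1.86 FPKM in Biotin-positive and 1.73 to 1.98 FPKM in Biotin-negative libraries. The keratin genes Krt7 and Krt8 moved with the groups and brought the sum of the whole list to 46.4 to 48.5 FPKM in Biotin-positive libraries, against 1.93 to 2.24 FPKM in Biotin-negative ones. Krt20 and Ovol2 were among those listed at 0 in every library. Leukocyte markers summed to 14.6 to 17.8 FPKM in Biotin-positive and 11.9 to 15.2 FPKM in Biotin-negative libraries, nearly all of it from Cd68, Cd14 and Lyz2, with Adgre1, Fcer1g and Cd3e at 0 throughout; 8 endothelial markers summed to less than 1 FPKM in every library. The part of Krt7, Krt8 and the myeloid genes in the differences below was not tested. In bulk RNA, fewer cells of a type and less RNA per cell cannot be told apart.

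The matricellular genes did not move as a block. Ccn1 and Thbs1 were higher in Biotin-positive cells, Ccn5, Thbs2, Tgfbi and Sparc were lower, Ccn4 did not pass the test, and Ccn2, Tnc and Postn were at or near 0 in Biotin-negative cells. Groups were compared with limma on log2(FPKM + 1) for genes of at least 1 FPKM in at least 3 libraries, with Benjamini-Hochberg adjustment over all 11029 genes tested and a threshold of 0.05. Of the 10 genes 8 were tested; 3 of these were higher and 4 lower. Over all tested genes 73.9% passed, 37.8% higher and 36.1% lower, so the counts of 3 and 4 do not set these genes apart. The libraries of the groups did not overlap for these 7 genes, nor for 76.9% of all tested genes, 39.1% with higher and 37.8% with lower values in Biotin-positive cells. Ccn2 reached testing only through the Biotin-positive libraries and had to differ to do so. By size, among all tested genes 5.29% rose and 3.41% fell by at least 1 on the log2 scale, and Ccn1, Thbs1, Ccn5, Thbs2, Tgfbi and Sparc were each past that size in their direction, with Ccn1 at percentile 99.8 of all log2 differences and Tgfbi at percentile 0.199.

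**Figure D1:**
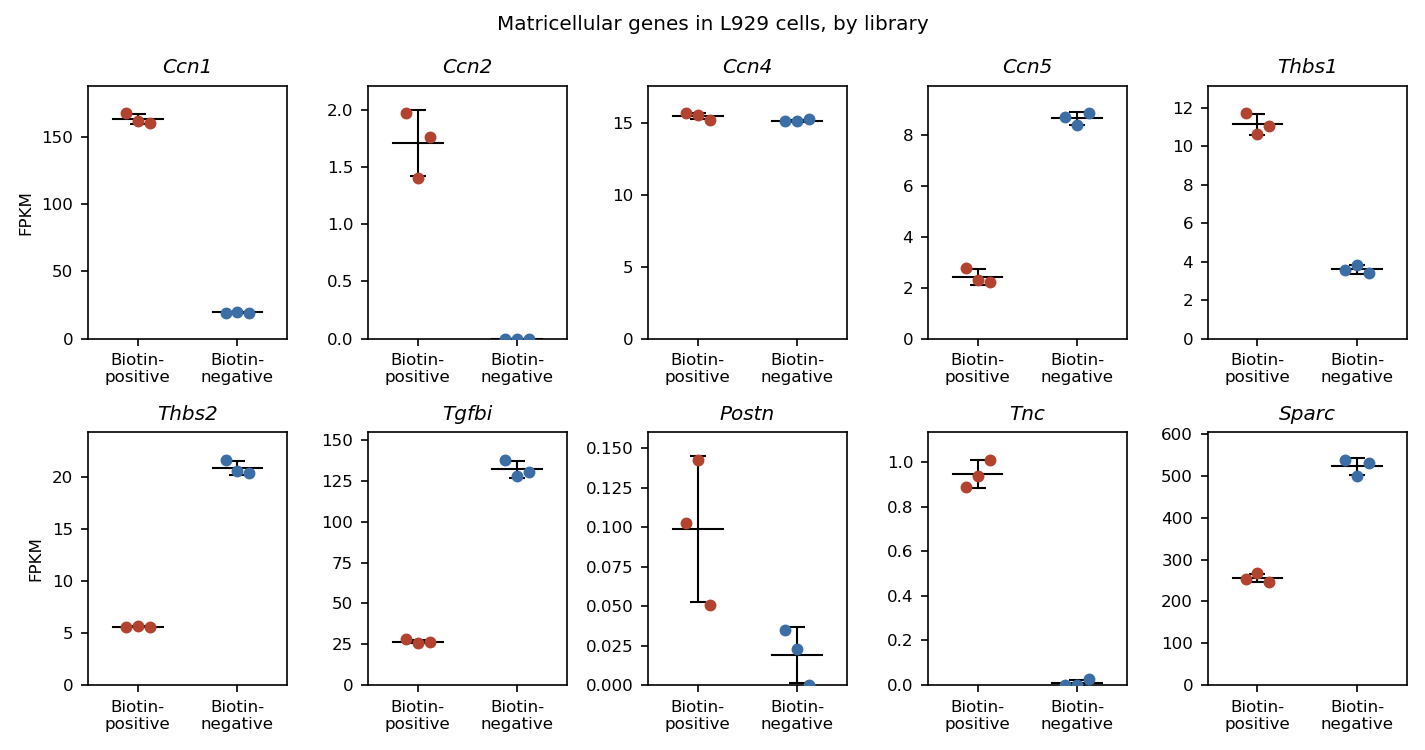
FPKM of the 10 matricellular genes in each library, Biotin-positive left and Biotin-negative right; points are libraries, bars the mean and SD over 3 libraries, and each panel has its own axis from 0. The 2 groups overlap for Ccn4 alone; Postn and Tnc lie near or under 1 FPKM in every library.

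The starts of 4 of these genes are shown because they carry the largest opposing changes for which a promoter sequence was given: Ccn1, which was higher, and Tgfbi, Thbs2 and Sparc, which were lower together. Each run is the 250 bases before the RefSeq transcription start on GRCm38.p6, 5′ to 3′ on the strand of the gene, at chr3:145649986-145650235 (minus strand) for Ccn1, chr13:56609336-56609585 (plus) for Tgfbi, chr17:14694263-14694512 (minus) for Thbs2 and chr11:55420081-55420330 (minus) for Sparc. Capitals mark matches, on either strand, to any of 4 words: GGAATG, the core of the TEAD site; TGACTCA or TGAGTCA, the AP-1 site; the CArG box, bound by SRF; and CAGACA, which contains the AGAC core bound by SMADs. No matches overlapped.
Ccn1: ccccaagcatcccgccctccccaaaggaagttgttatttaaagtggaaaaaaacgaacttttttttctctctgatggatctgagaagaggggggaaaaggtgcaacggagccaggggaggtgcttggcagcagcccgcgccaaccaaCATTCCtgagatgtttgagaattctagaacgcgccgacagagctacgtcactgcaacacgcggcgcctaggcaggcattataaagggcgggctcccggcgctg
Tgfbi: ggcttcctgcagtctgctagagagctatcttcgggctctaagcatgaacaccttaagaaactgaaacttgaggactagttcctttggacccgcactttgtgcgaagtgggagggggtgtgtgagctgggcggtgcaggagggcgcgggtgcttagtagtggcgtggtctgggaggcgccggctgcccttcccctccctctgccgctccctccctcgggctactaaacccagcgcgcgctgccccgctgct
Thbs2: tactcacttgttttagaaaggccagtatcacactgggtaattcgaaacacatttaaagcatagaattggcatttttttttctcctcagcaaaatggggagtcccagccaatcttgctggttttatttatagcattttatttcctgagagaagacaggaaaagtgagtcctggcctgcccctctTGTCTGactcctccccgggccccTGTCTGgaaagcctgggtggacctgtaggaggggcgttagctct
Sparc: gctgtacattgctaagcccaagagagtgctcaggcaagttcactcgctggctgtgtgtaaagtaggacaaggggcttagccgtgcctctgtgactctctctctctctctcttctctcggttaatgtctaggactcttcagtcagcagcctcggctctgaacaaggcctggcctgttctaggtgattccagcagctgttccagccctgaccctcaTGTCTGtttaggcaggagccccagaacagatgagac
Ccn1 held 1 match, the reverse complement of the TEAD word, at 103 to 98 bases before the start. Thbs2 held 2 matches to CAGACA and Sparc 1, all on the reverse strand, and Tgfbi held none. Among 32851 promoter windows of the same length, 12.6% held the TEAD word, 17.1% CAGACA, 4.46% the AP-1 site and 1.47% a CArG box. Such matches are letters in a window and not evidence of binding. A promoter sequence was given for 6 of the 10 genes; those of Postn and Tnc, which were below the level for testing, are not shown, and none was given for Ccn2, Ccn4, Ccn5 and Thbs1.

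The CCN proteins share a modular build and bind integrins and heparan sulfate proteoglycans at the cell surface. Ccn1 (also CYR61; ENSMUSG00000028195, chromosome 3, 145646976 to 145649981 on GRCm38, as are all gene coordinates here, 5 exons) is an immediate early gene that promotes adhesion and migration. It stood at 168, 162 and 161 FPKM in the Biotin-positive libraries, against 19.2, 20.1 and 19.3 FPKM in the Biotin-negative ones. The groups lay far apart, with means of 164 ± 3.86 and 19.5 ± 0.458 FPKM (SD, n = 3 each), a ratio of 8.38 and a log2 difference of 3.00 (SE 0.0328, limma adjusted p = 2.80e-10). By mean level it was the 303rd of all genes in the table in Biotin-positive cells and the 3619th in Biotin-negative cells.

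Ccn2 (connective tissue growth factor; ENSMUSG00000019997, chromosome 10, 24595442 to 24598683) encodes a fibrosis-associated growth factor and is a target of TGF-beta and of YAP. It was read at 1.97, 1.40 and 1.76 FPKM in Biotin-positive cells and listed at 0 in all 3 Biotin-negative libraries. Its level was far below that of Ccn1: Ccn2 made up 0.933% and Ccn1 89.3% of the summed FPKM of the 4 CCN genes in Biotin-positive cells. The fitted log2 difference of Ccn2 was 1.43 with a pseudocount of 1 and 4.17 with one of 0.1, so its size cannot be read, although limma called it in both (adjusted p = 9.85e-07 and 1.01e-07). The antisense transcript Gm15270 shares exon bases with Ccn2, and 7.91% of the Ccn2 transcript is matched almost exactly by other annotated genes. The match was not split by gene, so it may be the overlap with Gm15270 itself. Strand use in counting is not given, so reads of Ccn2 and Gm15270 cannot be told apart.

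Ccn4 (WISP1; ENSMUSG00000005124, chromosome 15, 66891320 to 66923201), named as a target of Wnt signalling, was the steady member of the family. Its values were 15.67, 15.50 and 15.21 FPKM in Biotin-positive and 15.09, 15.09 and 15.23 FPKM in Biotin-negative cells, and the groups overlapped. The log2 difference of 0.03 had a 95% interval of -0.06 to 0.11 (limma adjusted p = 0.509), and its sign turned to -0.030 when libraries were scaled to an equal FPKM sum.

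Ccn5 (WISP2; ENSMUSG00000027656, chromosome 2, 163820861 to 163833146) lacks the C-terminal cystine knot module of the other CCN proteins and has been described as opposing some of their actions. It moved the other way, with 2.789, 2.297 and 2.204 FPKM in Biotin-positive and 8.70, 8.38 and 8.86 FPKM in Biotin-negative cells. All Biotin-positive libraries lay below all Biotin-negative ones (28.1% of the Biotin-negative mean; log2 difference -1.50, SE 0.0732, limma adjusted p = 3.20e-07). The ratio of Ccn1 to Ccn5 FPKM was 60.3, 70.6 and 73.0 in the Biotin-positive libraries and 2.21, 2.39 and 2.18 in the Biotin-negative ones. The 4 CCN genes together summed to 183 ± 4.57 FPKM in Biotin-positive and 43.3 ± 0.277 FPKM in Biotin-negative cells (SD, n = 3 each). Ccn1 held 89.3 ± 0.130% of that sum in Biotin-positive cells and 45.1 ± 0.864% in Biotin-negative cells, where Ccn4 held 34.9% and Ccn5 20.0%.

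**Figure D2:**
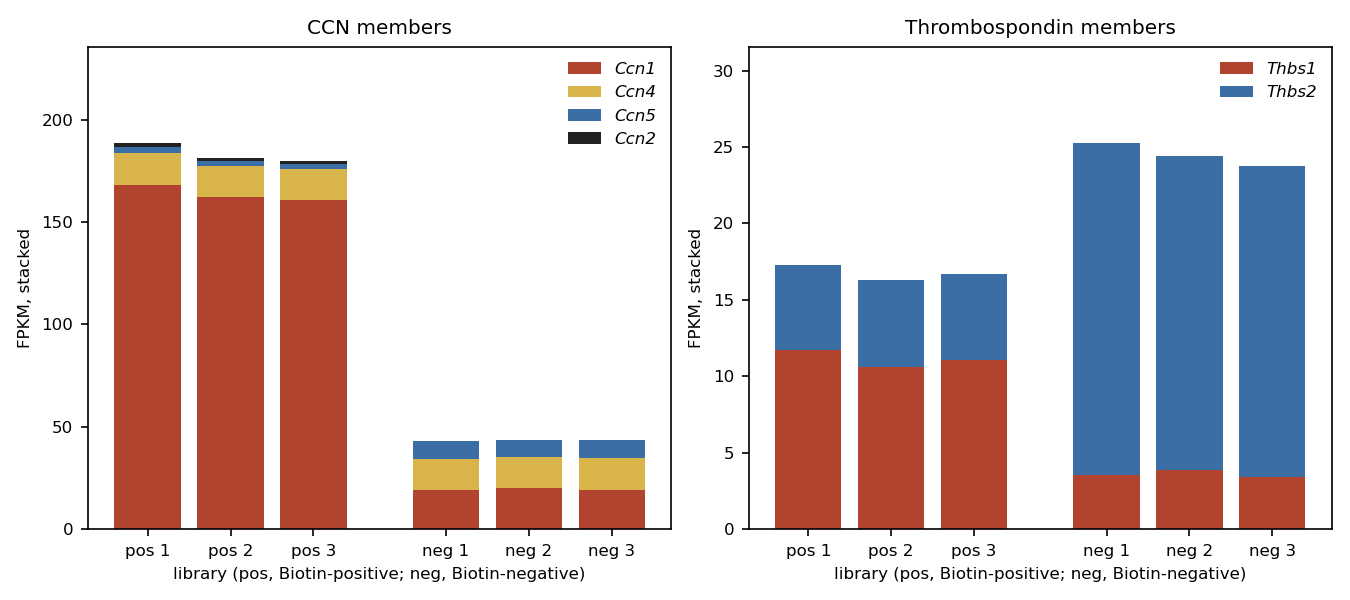
Stacked FPKM of the 4 CCN genes (left) and the 2 thrombospondin genes (right) in each library, Biotin-positive libraries left of Biotin-negative ones. The CCN sum was larger in Biotin-positive libraries through Ccn1 while Ccn4 kept its height; the thrombospondin sum was smaller there and was mostly Thbs1, against mostly Thbs2 in Biotin-negative libraries.

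The thrombospondins are large secreted glycoproteins. THBS1 and THBS2 both form trimers and bind the receptors CD36 and CD47, and THBS1, unlike THBS2, can activate latent TGF-beta. Thbs1 (ENSMUSG00000040152, chromosome 2, 118111876 to 118127133, 22 exons) stood at 11.7, 10.6 and 11.1 FPKM in Biotin-positive and 3.55, 3.85 and 3.38 FPKM in Biotin-negative cells. Every Biotin-positive library was above every Biotin-negative one (ratio of means 3.10, log2 difference 1.40, SE 0.0611, limma adjusted p = 1.67e-07). An antisense transcript, Gm29233, shares exon bases with Thbs1, and reads of the 2 cannot be told apart without strand.

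Thbs2 (ENSMUSG00000023885, chromosome 17, 14665500 to 14694235, 22 exons) stood at 5.56, 5.69 and 5.62 FPKM in Biotin-positive and 21.7, 20.6 and 20.4 FPKM in Biotin-negative cells. It fell to 26.9% of the Biotin-negative mean, again with no overlap (log2 difference -1.72, SE 0.0446, limma adjusted p = 1.18e-08). Thbs1 made up 66.4 ± 1.36% of the summed FPKM of the pair in Biotin-positive and 14.7 ± 0.928% in Biotin-negative cells (SD, n = 3 each). The sum itself was 16.8 ± 0.489 FPKM in Biotin-positive and 24.5 ± 0.727 FPKM in Biotin-negative cells, so the more abundant of the 2 genes changed while the total differed less, a ratio of 0.684.

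Tgfbi and Postn encode relatives with repeated fasciclin domains that bind integrins and collagens. Tgfbi (ENSMUSG00000035493, chromosome 13, 56609523 to 56639562, 17 exons), named for its induction by TGF-beta, was read at 27.9, 25.6 and 26.3 FPKM in Biotin-positive and 138, 128 and 131 FPKM in Biotin-negative cells. This was the largest fall among the 10 genes, to 20.1% of the Biotin-negative mean (log2 difference -2.27, SE 0.0430, limma adjusted p = 2.57e-09). Tgfbi ranked 2667th of all genes by mean level in Biotin-positive and 353rd in Biotin-negative cells. Postn (periostin; ENSMUSG00000027750, chromosome 3, 54361109 to 54391037), a marker of activated stromal fibroblasts in many tissues, was close to silent in both: 0.103, 0.143 and 0.0508 FPKM in Biotin-positive and 0.0347, 0.0228 and 0 FPKM in Biotin-negative cells. It was too low to be tested; the values did not overlap, and limma without the filter on low values gave an adjusted p of 0.0310 at a level where the read depth is unknown.

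Tnc (tenascin-C; ENSMUSG00000028364, chromosome 4, 63959785 to 64047015, 26 exons) encodes a multi-armed glycoprotein of wound and tumour stroma that weakens adhesion to fibronectin. It was read at 0.889, 0.938 and 1.01 FPKM in Biotin-positive cells, against 0, 0 and 0.0250 FPKM in Biotin-negative cells. The groups stood apart, but only 1 library reached 1 FPKM and Tnc was left out of the main test; without the filter limma gave an adjusted p of 2.30e-06, in a fit that called 54.1% of 17058 genes, with 28.4% of the 17058 higher. A transcript on the opposite strand, 8030451A03Rik, shares exon bases with Tnc.

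Sparc (osteonectin; ENSMUSG00000018593, chromosome 11, 55394500 to 55423183, 10 exons) encodes a calcium- and collagen-binding protein that helps collagen fibrils assemble. It was the most abundant of the 10 genes in both groups, at 253, 268 and 247 FPKM in Biotin-positive and 539, 499 and 530.5 FPKM in Biotin-negative cells. Biotin-positive cells held 48.9% of the Biotin-negative mean, without overlap (log2 difference -1.03, SE 0.0413, limma adjusted p = 1.06e-07). Sparc made up 52.9 ± 1.34% of the summed FPKM of all 10 genes in Biotin-positive and 72.3 ± 0.497% in Biotin-negative cells, and Ccn1 33.8 ± 0.809% and 2.71 ± 0.161% (SD, n = 3 each).

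The order of the genes by level therefore differed between the groups. In Biotin-positive cells it ran Sparc, Ccn1, Tgfbi, Ccn4, Thbs1, Thbs2, Ccn5, Ccn2, Tnc and Postn, and no 2 neighbours overlapped in their libraries. In Biotin-negative cells it ran Sparc, Tgfbi, Thbs2, Ccn1, Ccn4, Ccn5 and Thbs1, also without overlap between neighbours, followed by Postn, Tnc and Ccn2, which were not separated from each other. Thbs2 and Ccn1 were near each other there, at 20.9 ± 0.694 and 19.5 ± 0.458 FPKM (SD, n = 3). The 10 genes together summed to 484 ± 10.9 FPKM in Biotin-positive and 723 ± 25.8 FPKM in Biotin-negative cells, or 0.137% and 0.213% of all FPKM.

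The genes whose library profile was most like that of Ccn1, by Euclidean distance between log2(FPKM + 1) values centred on each gene's mean over the 6 libraries, were Gatm (distance 0.12), Prl2c3 (0.13) and Vnn1 (0.18). Gatm, an enzyme of creatine synthesis, averaged 7.47 FPKM in Biotin-positive and 0.0109 FPKM in Biotin-negative cells, and the pantetheinase gene Vnn1 24.5 and 2.26 FPKM. Prl2c3 belongs to the proliferin genes, which are near-identical copies, so its level is uncertain. For Tgfbi they were Gbp8 (0.16), Clu (0.18) and Spp1 (0.21). Clu, clusterin, averaged 19.9 FPKM in Biotin-positive and 90.8 FPKM in Biotin-negative cells. With 2 groups of libraries this likeness mostly reflects a difference of the same size on the log2(FPKM + 1) scale. It need not be a like fold change, since the added 1 shrinks the differences of genes near 0, such as Gatm. Gbp8 averaged 0.102 FPKM in Biotin-positive and 4.11 FPKM in Biotin-negative cells. Gatm and Prl2c3 reached testing only through the Biotin-positive and Gbp8 only through the Biotin-negative libraries, and had to differ to do so.

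Of 24 relatives and other secreted proteins usually counted as matricellular, 12 were tested, of which 4 rose, 6 fell and 2 did not pass, or 33.3% higher and 50% lower, against 37.8% and 36.1% of all tested genes. The median log2 difference of -0.29 (0.01 over all tested genes) depended on the filter: it was 0.23 at a minimum of 5 FPKM and -0.041 with no filter. Sparcl1 and the thrombospondin gene Comp, both counted as fallen, reached testing only through the Biotin-negative libraries and had to differ to do so. The galectin genes Lgals1 and Lgals3, whose proteins bind sugars on matrix and surface glycoproteins, rose 2.01-fold and 2.15-fold. Osteopontin, Spp1, fell to 290.1 ± 11.5 FPKM in Biotin-positive cells, against 1301 ± 26.0 FPKM in Biotin-negative cells (limma adjusted p = 1.44e-09). The SPARC relative Sparcl1 fell to 0.289 ± 0.0716 FPKM in Biotin-positive cells, against 7.20 ± 0.216 FPKM in Biotin-negative cells, a log2 difference that ranged from -4.25 to -2.63 over the alternatives, and Ecm1, a secreted matrix protein gene, fell by 1.14 on the log2 scale. Within the families, Thbs3 fell with Thbs2 (5.80 ± 0.0527 FPKM in Biotin-positive and 8.25 ± 0.625 FPKM in Biotin-negative cells), Smoc1, which carries SPARC-type domains, rose (6.24 ± 0.0632 and 2.87 ± 0.255 FPKM), and the tenascin gene Tnxb did not pass (1.64 ± 0.222 and 1.91 ± 0.0956 FPKM; SD, n = 3 each). Ccn3 and Ccn6 stayed under 1 FPKM in every library. Ccn3 was read at 0.417, 0.180 and 0.286 FPKM in Biotin-positive cells and listed at 0 in each Biotin-negative library, while the groups overlapped for Ccn6.

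**Figure D3:**
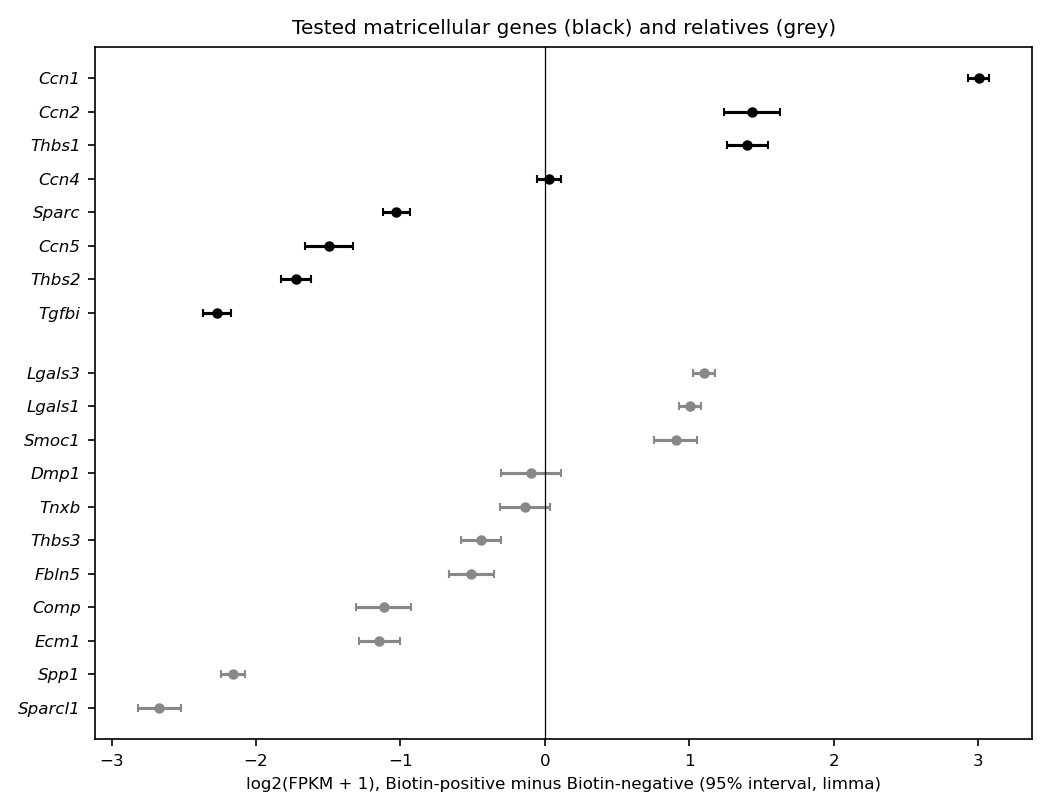
Log2 difference of FPKM + 1, Biotin-positive minus Biotin-negative, with the 95% interval from limma, for the tested matricellular genes (black) and all but 1 of their tested relatives (grey). Both sets spread to either side of 0, from 3.00 for Ccn1 to -2.27 for Tgfbi and, among the relatives shown, from 1.10 for Lgals3 to -2.67 for Sparcl1; the size for Ccn2 depends on the pseudocount.

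Of 23 receptors of these proteins (integrin chains, syndecans, scavenger receptors and others) 16 were tested, of which 3 rose, 7 fell and 6 did not pass (median -0.15), that is 18.8% higher and 43.8% lower, against 37.8% and 36.1% of all tested genes; with libraries scaled to an equal FPKM sum, 2 rose and 10 fell. The integrin chain gene Itga3 rose to 5.04 ± 0.329 FPKM in Biotin-positive cells, against 1.83 ± 0.125 FPKM in Biotin-negative cells, and the lipoprotein receptor gene Lrp8 to 17.2 ± 2.01 FPKM, against 9.56 ± 0.499 FPKM. Sdc4 was 44.5 and 41.8 FPKM, a call that 9 of 16 alternatives did not give. The proteoglycan gene Sdc1 fell to 43.8% of the Biotin-negative mean, Calr, calreticulin, to 47.2% and Vldlr to 49.0%. Among the other tested integrin chain genes, Itgav, Itgb1, Itga5 and Itga6 did not pass and Itgb5 fell to 81.2% of the Biotin-negative mean. The CD36 gene, for a thrombospondin receptor, stayed under 1 FPKM in every library, while Cd47 fell to 60.9 ± 0.751 FPKM in Biotin-positive cells, against 69.6 ± 3.80 FPKM in Biotin-negative cells.

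Among 18 matrix binding partners of these genes' products, all 14 tested fell (median log2 difference -1.06), against 36.1% of all tested genes. Besides matrix proteins, the 14 included the protease gene Bmp1 and Serpinh1, which encodes a collagen chaperone. Of the 4 too low to be tested, Dcn, which encodes the proteoglycan decorin, was higher in Biotin-positive cells without overlap, at 0.165, 0.293 and 0.249 FPKM, against 0, 0.00961 and 0 FPKM in Biotin-negative cells. The largest falls left Col6a2 at 6.81%, Col6a1 at 8.18% and fibronectin, Fn1, at 8.53% of the Biotin-negative mean. Col1a1, Col1a2 and Bgn fell with Sparc, by 0.88, 1.04 and 1.20 on the log2 scale.

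Of the regulators of Ccn1 and Ccn2, Yap1 rose to 138 ± 5.00 FPKM in Biotin-positive cells, against 28.5 ± 0.429 FPKM in Biotin-negative cells, while its paralog Wwtr1 fell to 18.04 ± 0.252 FPKM, against 21.0 ± 0.653 FPKM. Of 10 coactivators, DNA-binding partners and other regulators 5 rose, 2 fell and 3 did not pass. Over all tested genes 37.8% were higher and 36.1% lower. Vgll4, which is neither a coactivator nor a DNA-binding partner, was among those that rose, 1.23-fold. The median of these 10 genes, 0.17, was 0.065 at a minimum of 5 FPKM and 0.11 with an equal FPKM sum. Tead4 rose 2.03-fold and Tead2 1.28-fold, and Srf fell to 80.7% of the Biotin-negative mean. Tead3 was also counted as risen, but 2 of 15 alternatives did not give the call. Of 21 other YAP and TEAD targets 17 were tested, of which 12 rose, 3 fell and 2 did not pass (median 0.65), or 70.6% higher and 17.6% lower, against 37.8% and 36.1% of all tested genes. Of these, Foxf2 reached testing only through the Biotin-positive and Ccdc80 only through the Biotin-negative libraries, and both had to differ to do so. Axl and Ankrd1 rose 3.20-fold and 2.06-fold, less than Ccn1, and Foxf2 had, like Ccn2, low values in Biotin-positive cells (2.94, 2.22 and 2.88 FPKM) and a listed 0 in each library of Biotin-negative cells. Rbms3, Gadd45a and Ccdc80 fell.

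The TGF-beta ligands, receptors and SMADs are inputs to Tgfbi, Thbs1 and Ccn2 in other settings. With Ltbp1, a latent TGF-beta binding protein gene that is counted among the fallen, they numbered 12. Of these 11 were tested, of which 4 rose, 5 fell and 2 did not pass, or 36.4% higher and 45.5% lower, against 37.8% and 36.1% of all tested genes; with libraries scaled to an equal FPKM sum, 3 rose and 6 fell. Their median log2 difference of -0.25 was -0.069 without the second Biotin-negative library, -0.14 without the third Biotin-positive library and -0.17 with no filter. The inhibitory SMAD genes Smad7 and Smad6 rose 2.75-fold and 2.37-fold and the ligand gene Tgfb1 1.22-fold. The receptor gene Tgfbr1 was also counted as risen, but its groups overlapped and 7 of 15 alternatives did not give the call. The receptor genes Tgfbr2 and Tgfbr3 fell to 47.5% and 62.1% of the Biotin-negative mean, and Smad3 to 80.8%.

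**Figure D4:**
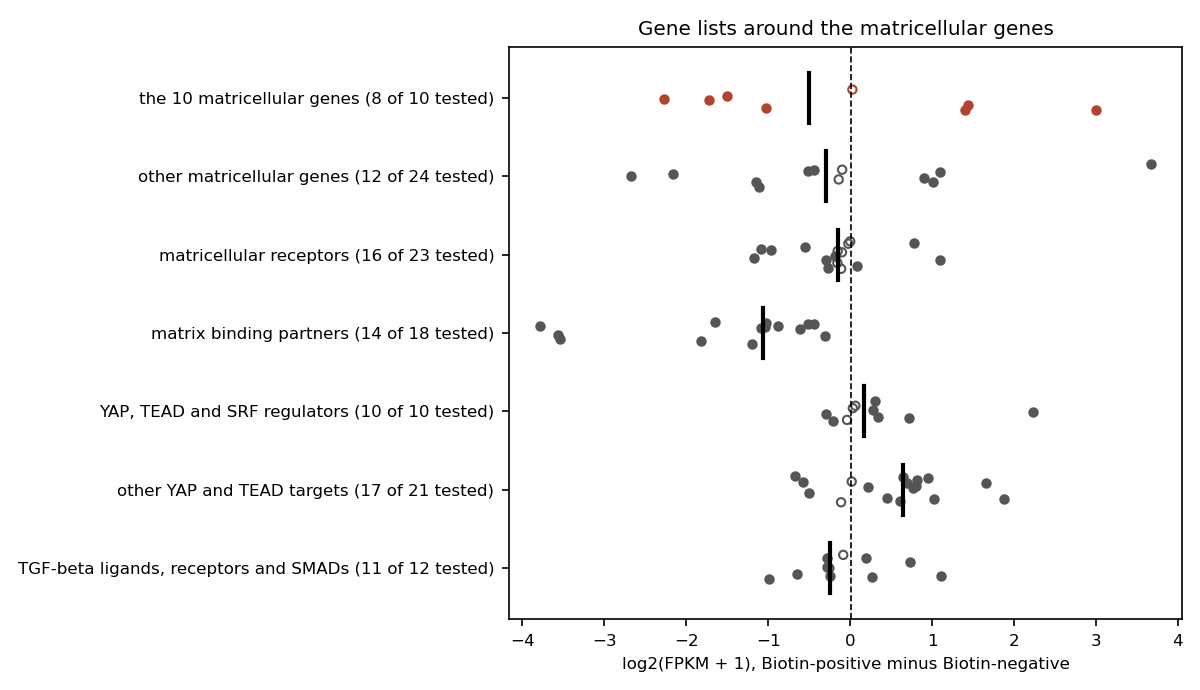
Log2 difference of FPKM + 1, Biotin-positive minus Biotin-negative, for the tested genes of each list; points are genes (red for the matricellular genes; filled where the limma adjusted p was under 0.05, open otherwise), thick bars the list medians, the dashed line the median of all tested genes, and vertical scatter within a list has no meaning. The 8 tested matricellular genes lie on both sides of 0, all tested matrix binding partners lie below it, and most YAP and TEAD targets lie above it.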

How the data were processed

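The authors deposited 1 table of FPKM values, with 1 column for each of the 6 libraries. The submitters' processing notes name cutadapt 1.9.1, HISAT2 2.2.1, HTSeq 0.6.1 and GRCm39; how FPKM was computed, the annotation release and the use of strand are not given in the sources used here. The coordinates in the table are those of GRCm38: 21687 of 21887 genes found in GENCODE vM21 had the same start and end, all 10 matricellular genes among them. They are given as deposited. Reads could not be recovered from the values, so depth is unknown and no counting interval is given; precision is the SD over 3 libraries.

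Groups came from the labels. Genes of at least 1 FPKM in at least 3 of 6 libraries were tested on log2(FPKM + 1), which understates the changes of low genes, with limma 3.58.1 in R 4.3.3 (lmFit, eBayes with trend, two-sided) and Benjamini-Hochberg adjustment over all 11029 tested genes, after the script was tested on simulated data. An exact permutation test of 3 against 3 libraries cannot go below p = 0.1 and was not used. Near-identical matches (at least 100 bases at 98% identity) were searched with blastn 2.17.0 among vM21 transcripts. Promoter sequences are from RefSeq, GRCm38.p6, matched by symbol.

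The genes and lists were chosen with earlier results of these data known. In the other lists, family relatives and up to 3 genes per direction are named. The latter were ranked by log2 difference among those that passed without overlap of the groups. Col1a1, Col1a2, Bgn, Cd47, Cd36, Itgav, Itgb1, Itgb5, Itga5, Itga6, Thbs3, Smoc1, Tnxb, Ccn3, Ccn6, Comp, Dcn, Tgfbr1 and Twist1 were added after their values were seen. The same holds for Vgll4, Tead3, Bmp1, Serpinh1 and Ltbp1. A relative that this rule names and an epithelial marker at 0 are counted in their lists but not reported here by name. The alternatives were pseudocounts of 0.1 and 0.5, no filter, a minimum of 5 FPKM, 3 other scalings, 2 other variance priors, the replicate number as a block, a minimum log2 difference of 1, and each library left out in turn; the removal of genes listed at 0 throughout a group was chosen with the data in view. Other software was Python 3.11.15, numpy 2.4.6, pandas 2.3.3, scipy 1.17.1 and matplotlib 3.10.9.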

Additional observations from a re-analysis of the deposited data

How the results depend on the processing

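Ccn1, Thbs1, Ccn5, Thbs2, Tgfbi and Sparc kept their direction and stayed past the threshold in all 17 alternatives each; the log2 difference of Ccn1 ranged from 2.93 to 3.06 and that of Tgfbi from -2.34 to -2.24. Ccn2 was called in all 15 that could include it, with sizes from 1.18 to 4.17. Ccn4 was called in none, and its sign turned to -0.030 with an equal FPKM sum per library. Without the filter on low values, 5 of the 10 genes were called higher, since Tnc and Postn enter, against 28.4% of 17058 genes. In the same fit 1 of 18 matrix binding partners was called higher. Among the partners that the filter had left out, only Dcn was higher without overlap of the groups. Leaving out 1 library at a time kept all 96 list and genome counts within 1.5 times; list medians were less stable, as given with the lists, and the median of the 10 genes, -0.50, was 0.068 with no filter and -1.03 at a minimum of 5 FPKM. At a minimum of 5 FPKM fewer genes, 8577, were tested, of which 3420 were higher and 3172 lower. There 3 of 7 regulators rose, 1 of 12 other YAP and TEAD targets fell and 1 of 7 TGF-beta genes rose. At a log2 difference of at least 1, which is stricter by construction, 583 of all tested genes were higher and 376 lower; 1 receptor rose and 2 fell; 9 matrix binding partners fell; 1 regulator rose and 0 fell; 3 YAP and TEAD targets rose and 0 fell; 1 TGF-beta gene rose and 0 fell. Leaving out genes at 0 in a whole group, an alternative chosen after seeing the data, removed Ccn2, Foxf2 and Twist1 from the calls. Whether equal numbers pair the libraries is not given. Deviations of same-numbered libraries correlated at 0.01 to 0.04 across genes, and those of other pairs at -0.05 to 0.03. Such values cannot tell whether libraries of equal number share a culture. With the replicate block 4113 of all tested genes were higher and 3927 lower, and the block changed no call of the 10 matricellular genes. Genes near 0 FPKM cannot be compared closely at an unknown depth.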
